A study of Homo sapiens with 6 samples.

Results

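The FGF19 and FGFR4 axis is the growth factor pathway through which the liver reads bile acids. 8 genes of it were followed: FGF19, FGF21, FGFR1, FGFR2, FGFR3, FGFR4, KLB and FRS2. They were picked by gene name from the 50868 genes in the deposited table, by a rule that uses no measured value, though with earlier results of these data known. Expression was read by sequencing RNA of Huh7, an established human hepatoma line. 3 libraries were made from cells given the hsa_circ_0098181 overexpression plasmid and 3 from cells given a control plasmid. Both groups were transfected with Lipofectamine and taken 48 h later, so they share the transfection and differ in the plasmid. hsa_circ_0098181 is a circular RNA made from exons of SOX5. Nothing in the labels says that the 3 libraries of a group came from separate cultures, so each p-value below measures the spread between these libraries, which may be technical.

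FGF19 is a hormone released by the gut after bile acids return from a meal. It binds FGFR4 on the hepatocyte together with beta-Klotho, the co-receptor encoded by KLB, and the signal lowers bile acid synthesis. FGF21 is a related hormone of fasting and cell stress that also needs beta-Klotho. The adaptor FRS2 is tied to the inner face of the receptors and links them to the RAS and ERK cascade. Healthy hepatocytes make little FGF19, whereas some liver tumours make it themselves and carry the receptor on the same cells.

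Huh7 cells of both groups expressed FGF19, FGFR4, FGFR3 and KLB strongly, expressed FGFR1 and FRS2 at a lower level, and gave almost no reads for FGF21 and FGFR2. 6 of the 8 genes had enough counts to be tested. With the circle overexpressed, 0 of these 6 passed an adjusted p of 0.05 in edgeR's quasi-likelihood test, where 0.0399% of the 15055 genes tested passed. None had groups that did not overlap, against 12.9% of all tested genes, and none had an unadjusted p under 0.05, against 5.5%. 3 of the 6 had a log2 fold change above 0 and 3 below, with a median of -0.0076 beside 0.0023 over all tested genes. In such bulk libraries, fewer cells that express a gene and less of its RNA per cell cannot be told apart.

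The libraries held 11130902 to 14138262 counts. SOX5, the host gene of the circle, was higher in the overexpression libraries by 5.88 on the log2 scale (edgeR adjusted p 2.6e-06), which checks the labels but cannot part circular from linear or plasmid-derived reads. Mitochondrial genes took 6.32% to 7.04% of the counts in 5 of the libraries, and 9.29% in control replicate 1. All 10 hepatocyte and hepatoma markers were expressed and tested and 0 passed the test (median log2 fold change 0.073), with AFP at 12652 ± 96.8 CPM (SD, n = 3) with overexpression, and controls had 12149 ± 1253 CPM (SD, n = 3). CPM is a gene's count scaled to the size of its library after TMM normalization. ALB differed by 0.10 on the log2 scale, APOB by -0.39 and HNF4A, a hepatocyte transcription factor, by -0.54, with HNF4A at 197 CPM in control replicate 1 and 76.2 to 114 CPM in the other 5 libraries. Without control replicate 1 the HNF4A difference was -0.16. Of 12 markers of other cell types, 6 were high enough to be tested and 0 passed the test. Their summed level was 199 to 213 CPM with overexpression and 189.6 to 221 CPM in controls, carried mostly by KRT19 and PECAM1, while the endothelial marker CDH5 was at 0 counts in all 6 libraries. KRT19 ran from 105 to 149.9 CPM and PECAM1 from 46.9 to 59.1 CPM. The leukocyte markers CD68 and PTPRC differed by -0.12 and 0.49 on the log2 scale (edgeR adjusted p 0.924 and 0.797).

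FGF19 (ENSG00000162344) lies on chromosome 11 at 69698232 to 69704642, minus strand (GRCh38). Overexpression replicates 1, 2 and 3 held 103, 81.6 and 84.8 CPM, and the controls in the same order held 80.1, 86.1 and 87.3 CPM. Overexpression replicate 1 stood above the other 5 libraries, which lay close together, and the groups overlapped. The log2 fold change, overexpression minus control here and below, was 0.09 (standard error 0.11, 95% interval -0.17 to 0.35, edgeR adjusted p 0.872). Without overexpression replicate 1 it was -0.023. The interval corresponds to a level between 0.891 and 1.27 times that of the controls.

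FGF21 (ENSG00000105550; chromosome 19 at 48755559 to 48758330, plus strand) was hardly detected. Overexpression replicate 2 held 3 counts and the other 5 libraries held 0. A count of 0 allows up to 3 counts, which is 0.212 to 0.277 CPM in these libraries, and this covers counting error only. The count filter left it out of the test, and no fold change is given, because both groups were at or under that floor.

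Of the receptors, FGFR4 and FGFR3 had the most counts. FGFR4 (ENSG00000160867), the main FGF receptor of hepatocytes, lies on chromosome 5 at 177086886 to 177098144, plus strand. Its level was 356, 366 and 312 CPM with overexpression and 302, 362 and 351 CPM in controls. The lowest library of each group was about equally low, and the groups overlapped over nearly their whole range. Between groups it differed by 0.028 on the log2 scale (standard error 0.10, 95% interval -0.21 to 0.27, edgeR adjusted p 0.964). Leaving out overexpression replicate 2 gave -0.019 and leaving out control replicate 1 gave -0.046, so its sign turned with single libraries.

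FGFR3 (ENSG00000068078), a receptor better known from cartilage and bladder, lies on chromosome 4 at 1793307 to 1808872, plus strand. It was at 258, 274 and 274 CPM with overexpression and at 209, 280.1 and 234 CPM in controls. The overexpression values were close together, and control replicate 2 was above all of them. Between groups it differed by 0.16 on the log2 scale (standard error 0.11, 95% interval -0.11 to 0.42, edgeR adjusted p 0.80). Control replicate 1 was the lowest of all 6 libraries for FGF19, FGFR3 and FGFR4, and it was also the library with the highest mitochondrial share. For FGF19 overexpression replicate 2 was close to control replicate 1 (81.6 against 80.1 CPM). Without control replicate 1 the log2 fold change of FGFR3 was 0.066, and the part of the mitochondrial share in these values was not tested.

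FGFR1 (ENSG00000077782; chromosome 8 at 38411138 to 38468834, minus strand) is a receptor of many tissues and the usual partner of beta-Klotho for FGF21 in fat. It was at 26.2, 38.7 and 34.9 CPM with overexpression and at 33.2, 34.6 and 35 CPM in controls. The overexpression libraries lay on both sides of the controls, which differed little. Between groups it differed by -0.043 on the log2 scale (standard error 0.15, 95% interval -0.38 to 0.30, edgeR adjusted p 0.958), and without overexpression replicate 1 it was 0.10. 2 other genes of the table, RPS20P22 and RP11-350N15.4, overlap FGFR1, and how reads in shared stretches were counted is not given in the sources used here. FGFR2 (ENSG00000066468; chromosome 10 at 121478334 to 121598458, minus strand), known from epithelial tissues, had 0 counts in every library, which allows a level of up to 0.212 to 0.277 CPM.

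KLB (ENSG00000134962; chromosome 4 at 39406853 to 39451536, plus strand) encodes beta-Klotho. It was at 144, 157 and 156 CPM with overexpression and at 159, 157 and 168 CPM in controls. These were the steadiest values among the 6 tested genes, with the groups touching at 157 CPM. Between groups it differed by -0.084 on the log2 scale (standard error 0.083, 95% interval -0.27 to 0.11, edgeR adjusted p 0.842). KLB was below the controls in each of the 6 fits that left out one library, from -0.11 to -0.045, without passing the threshold in any. FGFR3 likewise kept its sign in all 6, from 0.066 to 0.28. These fits share most libraries, so they are not independent.

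FRS2 (ENSG00000166225; chromosome 12 at 69470349 to 69579789, plus strand) gave 20.0, 26.2 and 91.0 CPM with overexpression and 34.6, 76.6 and 30.8 CPM in controls. 1 library of each group, overexpression replicate 3 and control replicate 2, stood far above the others. The counts behind them were 1126 and 900, against 282 to 375 in the other 4 libraries. The means were 45.7 ± 39.3 CPM (SD, n = 3) with overexpression, and controls had 47.3 ± 25.4 CPM (SD, n = 3). Between groups it differed by -0.055 on the log2 scale (standard error 0.57, 95% interval -1.36 to 1.25, edgeR adjusted p 0.987). It was -1.04 without overexpression replicate 3 and 0.48 without control replicate 2. The interval corresponds to a level between 0.389 and 2.38 times that of the controls, and it is not a limit of detection.

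**Figure D1:**
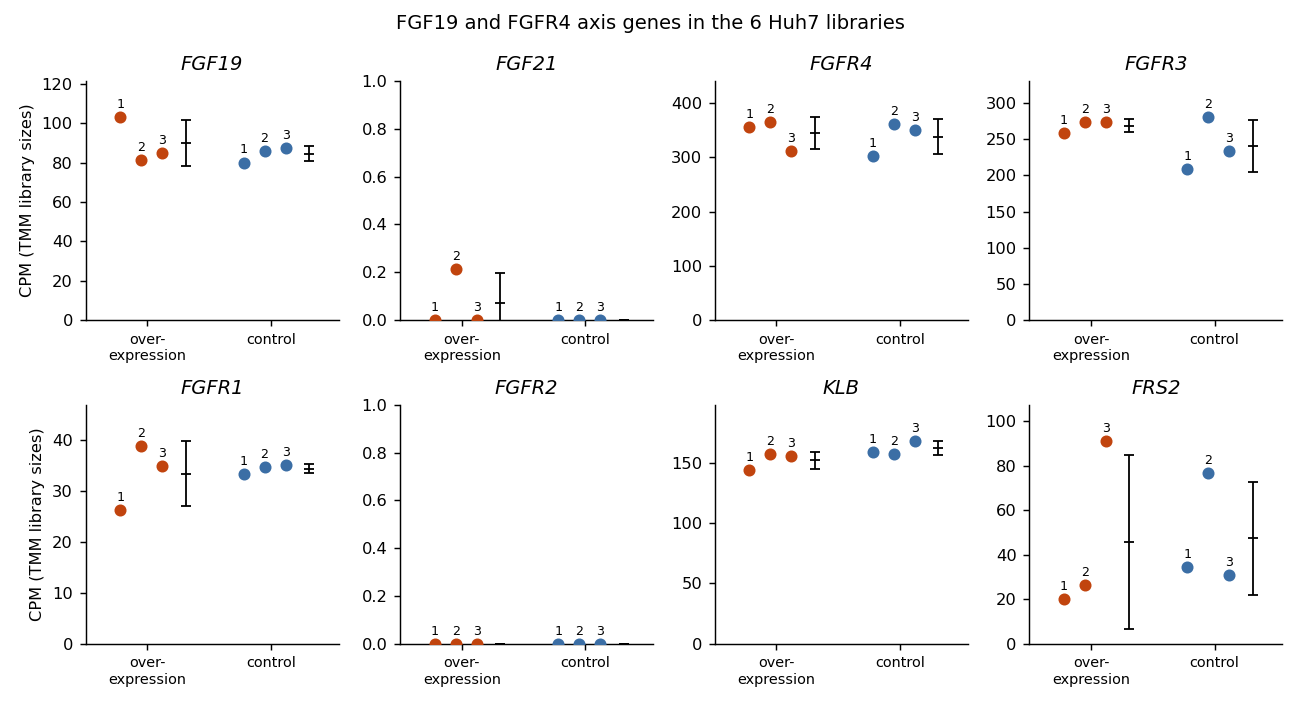
Level of each of the 8 genes in CPM (y axis, from 0) in the 3 overexpression and 3 control libraries, numbered by replicate, with the mean and SD of each group beside the points. The groups overlap in every panel; FRS2 is high in overexpression replicate 3 (91.0 CPM) and control replicate 2 (76.6 CPM), and FGFR2 is at 0 throughout.

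For single genes, exact two-sided permutation tests of log2(CPM + 0.5) were run beside edgeR, where the smallest p that 3 against 3 libraries can give is 0.1. They gave an exact p of 0.2 for KLB, 0.4 for FGFR3, 0.6 for FGFR4, 0.7 for FGF19 and for FRS2, and 0.9 for FGFR1. None of these reached the smallest value.

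**Figure D2:**
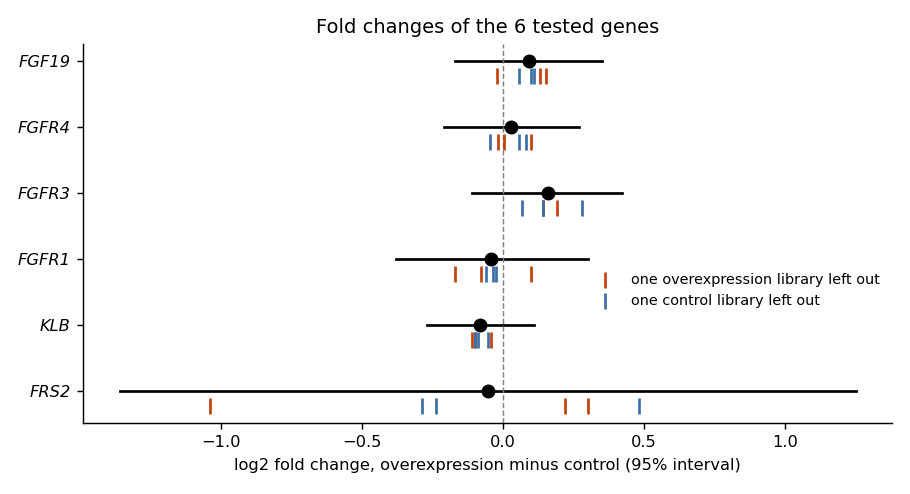
Log2 fold change of the 6 tested genes, overexpression minus control (x axis), with points for edgeR's estimate, lines for its 95% interval and ticks for the fits without one library. Every interval spans 0, and the one of FRS2 reaches from -1.36 to 1.25.

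The spread between replicates set FRS2 apart from the other tested genes. Its pooled SD within groups was 0.96 on the log2 scale, at percentile 99.3 of the 15055 tested genes, whose median was 0.18. KLB was at the other end with 0.06, at percentile 4.13. The other 4 genes had pooled SDs of 0.13 to 0.20, and FRS2's highest library was 4.56 times its lowest against 1.17 times for KLB.

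After these values were seen, the table was searched for other genes with the step of FRS2, meaning overexpression replicate 3 and control replicate 2 both at least 2 times above the highest of the other 4 libraries. FRS2 met this with a ratio of 2.21, and 3 other tested genes did too: RP11-80H5.5, PEG10 and HIGD1A. PEG10, an imprinted gene derived from a retrotransposon, was at 422 and 463 CPM in those libraries and at 95.6 to 167 CPM in the other 4. HIGD1A, which encodes a mitochondrial protein of the hypoxia response, was at 165 and 163 CPM against 37.9 to 72.8 CPM. At this cut the step was met by 4 of 15055 tested genes, FRS2 included, and by no other gene of the axis. The cut of 2 lies close under the ratio of FRS2, and smaller rises in the same libraries fall outside the count. PCGF3 was at 85.2 and 93.0 CPM in those libraries and at 37.5 to 46.2 CPM in the other 4. Of 11499 genes with a mean of at least 5 CPM, 59 (0.513%) had a Pearson r of at least 0.9 with FRS2. No gene of the table overlaps FRS2, and whether the library preparation played a part was not tested.

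**Figure D3:**
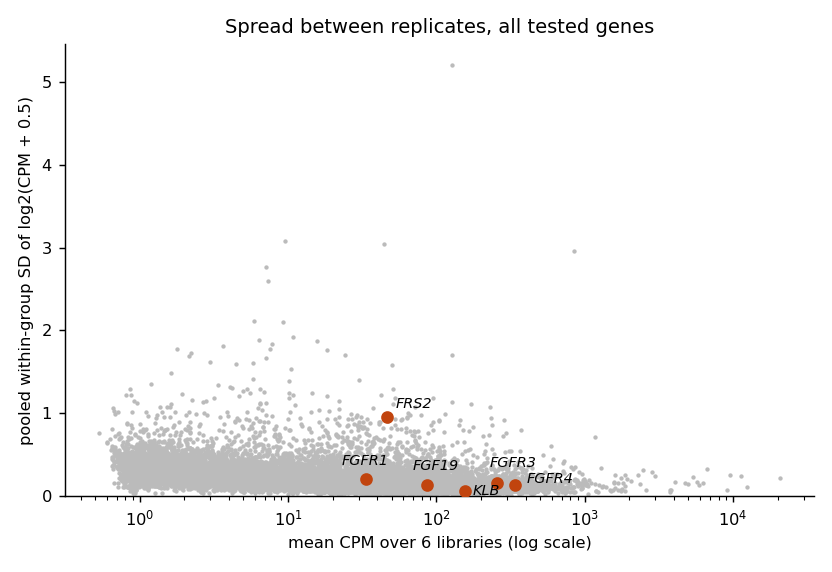
Pooled SD within groups of log2(CPM + 0.5) (y axis) against mean CPM over the 6 libraries (x axis, log scale) for 15055 tested genes in grey, with the 6 tested genes of the axis in colour. FRS2 lies at 0.96 and the other 5 at 0.06 to 0.20.

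Levels of different genes were compared per length, first on the deposited FPKM (fragments scaled to gene length and library size). Over the 6 libraries FGF19 had a mean of 35.6 ± 3.52 FPKM (SD, n = 6), FGFR4 34.9 ± 3.08, FGFR3 26.7 ± 3.22 and KLB 25.8 ± 1.23. FRS2 followed at 2.99 ± 1.92 FPKM and FGFR1 at 0.90 ± 0.115 FPKM. The ranges of FGF19 and FGFR4 overlapped, as did those of FGFR3 and KLB, so the order within each of these pairs is not fixed. The lowest library for FGFR4 (30.1 FPKM) was above the highest for FGFR3 (29.3 FPKM).

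The order depends on the length used. The length behind the deposited FPKM was worked out from each gene's counts, the library totals and its FPKM. It was 9764 bases for FGFR4 and 9554 for FGFR3, against 4829 and 4834 bases of merged exons in GENCODE 29. For FGFR1 it was 37451 against 12698 bases, while FGF19 (2447 bases) and KLB (6082 bases) had the same length on both. Per kb of merged exons FGFR4 was highest with a mean of 70.7 ± 5.70 CPM (SD, n = 6), followed by FGFR3 at 52.7 ± 5.79, FGF19 at 35.6 ± 3.43 and KLB at 25.8 ± 1.26, with ranges that did not overlap. FRS2 (6.42 ± 4.09) and FGFR1 (2.66 ± 0.325) came last on this scale too, and their ranges overlapped. The ratio of FGFR4 to FGF19 was 0.986 ± 0.0954 on FPKM and 1.99 ± 0.193 per kb of merged exons.

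**Figure D4:**
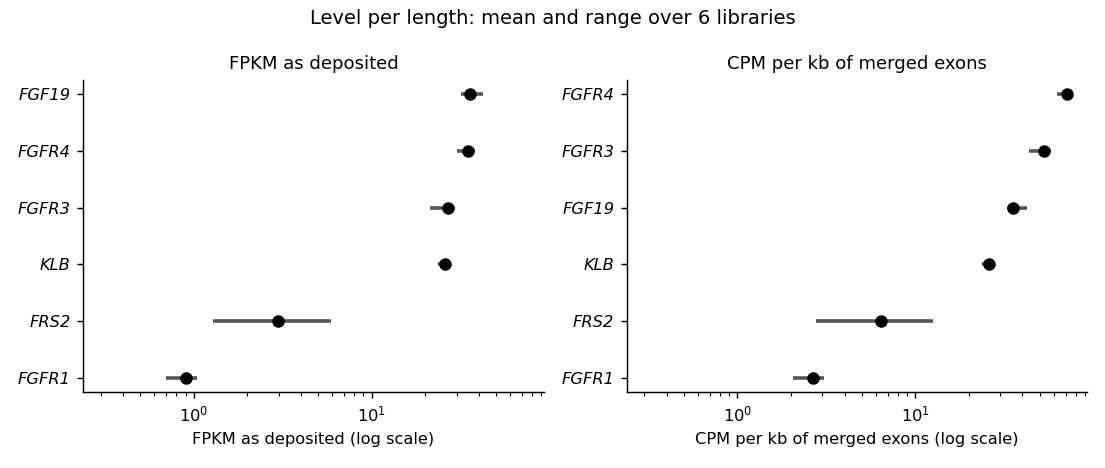
Mean level per length (points) and lowest to highest library (lines) of the 6 tested genes over 6 libraries, as deposited FPKM on the left and as CPM per kb of merged exons on the right, both on log scales. FGFR4 and FGFR3 move above FGF19 on the right, while FRS2 and FGFR1 are lowest on both.

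Relative to its gene families, the axis was made up of few genes. FGF19 supplied 95.7% ± 0.869 (SD, n = 6) of the summed FPKM of 22 FGF family genes and 93.2% ± 1.32 per kb of merged exons. Among the 4 receptor genes FGFR4 supplied 56.0% ± 2.34 of the summed FPKM, FGFR3 42.6% ± 2.35 and FGFR1 1.45% ± 0.197. Per kb of merged exons they supplied 56.1%, 41.8% and 2.12%. On FPKM these shares were 54.9% for FGFR4 and 43.8% for FGFR3 with overexpression against 57.1% and 41.4% in controls, with exact permutation p of 0.4 and 0.3. The ratio of FGF19 to KLB was 1.39 on both scales. No share or ratio reached the smallest p of this design.

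Several FGF family genes and targets of the pathway gave few or no counts. Of 20 other FGF family genes, 3 were tested, 9 had 0 counts in all libraries and 0 passed the test. FGF11, FGF2 and FGF12 were the highest, and their log2 fold changes were -0.23, -0.29 and -0.15. Without control replicate 3 the value of FGF2 was -0.0019. CYP7A1, the rate-limiting enzyme of bile acid synthesis that FGF19 represses in liver, had 1 count over the 6 libraries together. SLC10A1, the bile acid uptake carrier of hepatocytes, had 2 counts, and KL, which encodes the co-receptor for FGF23, had 33.

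The remaining pathway genes were grouped by role, and 0 passed an adjusted p of 0.05 in edgeR in either direction. EXTL3, GAB1, SPRY2, EGR1, MYC, PPARA and THRB had an unadjusted p under 0.05, as 5.5% of all tested genes did. Among 16 tested co-receptor and heparan sulphate genes of 20 listed, 10 lay above 0 and 6 below, with a median log2 fold change of 0.11. The most abundant was GPC3, a glypican of hepatoma cells (0.12), then SDC1 (-0.24) and SDC4 (-0.015), both syndecans. EXTL3, an enzyme that starts heparan sulphate chains, was at 44.3, 46.7 and 37.4 CPM with overexpression and 27.8, 33.6 and 34.3 CPM in controls. Its log2 fold change was 0.42 with an edgeR adjusted p of 0.797. Its groups did not overlap, and neither did those of GAB1, HRAS, SPRY2, EGR1, SREBF2 and PPARA, named below. The same held for 12.9% of all tested genes.

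Of 25 adaptor and kinase cascade genes, all tested, 8 lay above 0 and 17 below, with a median of -0.06. RPS6KA3 (-0.085) and PTPN11 (-0.11) were the most abundant of those named, and encode an ERK-activated kinase and the phosphatase SHP2. GAB1, a docking protein that works beside FRS2, was at 46.5 to 50.1 CPM with overexpression and 52.3 to 60.3 CPM in controls, a log2 fold change of -0.24 (edgeR adjusted p 0.797). HRAS had the largest difference of the list at 0.37 (edgeR adjusted p 0.797).

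Feedback inhibitors and ERK-responsive genes report on pathway output. Of 11 tested feedback genes of 12 listed, 5 lay above 0 and 6 below, with a median of -0.0041. DUSP6, the ERK phosphatase, was the most abundant and differed by 0.051, DUSP5 by 0.094 and ERRFI1 by -0.042. SPRY2, a Sprouty inhibitor, was at 64.1 to 66.5 CPM with overexpression and 50.9 to 57.4 CPM in controls, and its log2 fold change of 0.25 had an edgeR adjusted p of 0.797. IL17RD, an inhibitor of FGF receptors at under 3 CPM, had the largest difference (-0.36).

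Of 14 tested ERK-responsive genes of 15 listed, 7 lay above 0 and 7 below, with a median of -0.00018. CCND1 (-0.0098), ETV4 (-0.033) and ETV5 (0.0095) were the most abundant, and the groups of each overlapped. EGR1, an immediate early gene, was at 13.8 to 16.1 CPM with overexpression and 17.8 to 24.4 CPM in controls, a log2 fold change of -0.41 (edgeR adjusted p 0.797). MYC was at 2.69, 77.9 and 3.23 CPM with overexpression and at 2.77, 2.90 and 5.51 CPM in controls. Its fitted log2 fold change of 2.90 (edgeR adjusted p 0.797) rested on overexpression replicate 2 alone, and without that library it was -0.34.

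Bile acid genes and factors that act on FGF19 or FGF21 were counted in the same way. Of 10 tested bile acid genes of 15 listed, 8 lay above 0 and 2 below, with a median of 0.12. NR1H4, the bile acid receptor FXR that switches on FGF19, was at 155 ± 10.8 CPM (SD, n = 3) with overexpression, and controls had 141 ± 18.0 CPM (SD, n = 3), a log2 fold change of 0.13. NR5A2 (-0.14) and CYP27A1 (0.12) were the next most abundant, and SLC51A, part of a bile acid exporter, had the largest difference (0.41), which was 0.042 without control replicate 3 and 0.77 without control replicate 2. For the 10 upstream factors, all tested, 6 lay above 0 and 4 below, with a median of 0.036. ATF4 (0.087), the stress factor that acts on FGF21, XBP1 (-0.11) and SREBF2 (-0.069) were the most abundant. PPARA, the fasting receptor upstream of FGF21, had a log2 fold change of 1.17 and THRB, a thyroid hormone receptor, one of -0.28 (edgeR adjusted p 0.797 for each). PPARA was at 24.2, 7.42 and 11.4 CPM with overexpression and 6.37, 5.45 and 7.32 CPM in controls. Without overexpression replicate 1 its log2 fold change was 0.56.

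FGF19 lies in a stretch of chromosome 11, band q13, that is often gained in tumours. 6 of its 10 listed neighbours were tested, with a median of 0.024. CCND1 was at 323 ± 4.01 CPM with overexpression and 325 ± 41.7 CPM in controls (SD, n = 3 each), CTTN at 257 ± 34.0 and 253 ± 32.9 CPM, and PPFIA1 at 145 ± 6.67 and 154 ± 14.3 CPM. LTO1 had the largest difference (0.25). FGF3 and FGF4, 2 ligand genes of the same stretch, had 0 counts in all libraries.

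**Figure D5:**
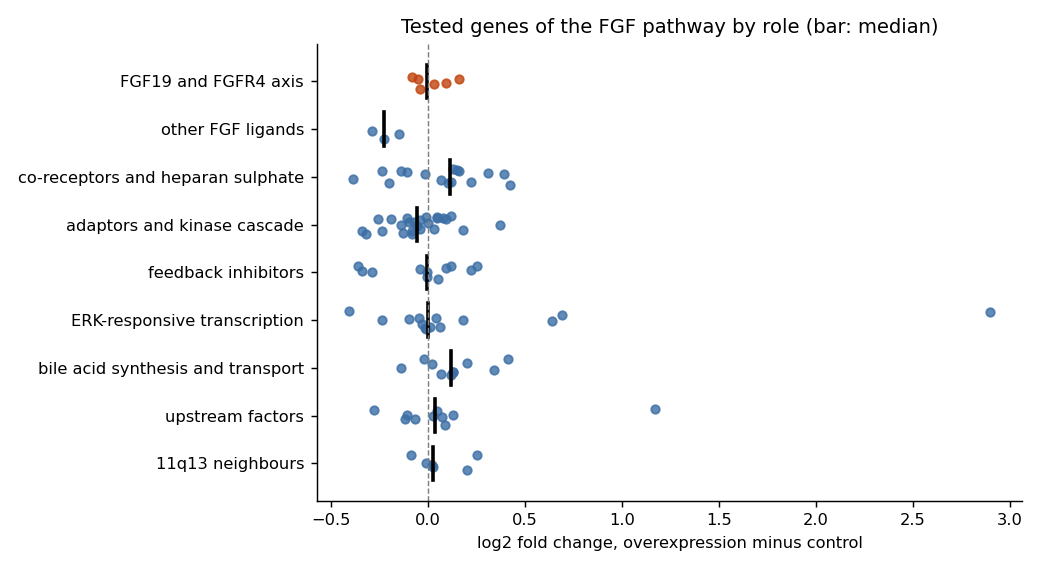
Log2 fold change, overexpression minus control (x axis), of every tested gene of the axis and of 8 pathway lists (rows), with 1 point a gene and a bar at each median. The medians run from -0.23 to 0.12, and the point at 2.90 is MYC, which was high in 1 library. The row named other FGF ligands holds tested FGF family genes besides FGF19 and FGF21.

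The expression pattern of FGF19 over the 6 libraries was set beside that of 11499 genes with a mean of at least 5 CPM. The closest by Pearson's r of log2(CPM + 0.5) were SPX (0.984), TMEM203 (0.981), TMBIM6 (0.979), PQBP1 (0.977) and PDZD11 (0.975). For FGFR4 they were AP1M1 (0.982), ARMCX5 (0.979), CCHCR1 (0.976), FLYWCH2 (0.976) and KLHL21 (0.974). Of the genes compared, 92 (0.8%) had an r of at least 0.9 with FGF19 and 109 (0.948%) with FGFR4. Among the tested genes of the axis, FGF19 had an r of 0.391 with FGFR4, 0.195 with FGFR3, -0.395 with FRS2, -0.693 with KLB and -0.876 with FGFR1. Overexpression replicate 1 was the highest library for FGF19 (103 CPM) and for its 5 closest genes. It was the lowest for KLB (144 CPM) and FGFR1 (26.2 CPM). The r values of FGF19 thus lean on that library, and none was recomputed without it. For FGFR4 and its 5 closest genes, overexpression replicate 3 and control replicate 1 were the lowest libraries. Those r values lean on them, and none was recomputed without them. All r values are descriptions over libraries that share groups and depth, with no test.

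The sequence of 1 microRNA is shown because its sites were looked for in the 8 genes. The circle was studied as a binder of miR-18a-3p, whose seed (bases 2 to 8, in capitals) pairs with the heptamer AGGGCAG. The RefSeq mature sequence lies at chr13:91350797-91350819, plus strand (GRCh38.p14):
hsa-miR-18a-3p: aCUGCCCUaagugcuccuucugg

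Among the 8 genes, only FGFR1 holds the heptamer in the 3′ UTR of its longest coding transcript in GENCODE 29, at 1811 and 2632 bases after the stop codon. Over all genes, 3345 of 19088 3′ UTRs hold it (17.5%). FGFR1 differed by -0.043 between groups, and a match is not evidence of binding.

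Promoter sequences (250 bases before to 50 after a start) were at hand for 6 of the 8 genes, not for FGF19 and FGFR1. After these promoters had been seen, 3 motifs were searched on both strands: TGATGCAAT, a form of the element bound by ATF4, and the receptor half-site repeats AGGTCANAGGTCA and AGGTCANTGACCT. FGF21 alone held one, the ATF4 element, 55 bases before its RefSeq start. The 30-base window around the element lies at chr19:48755459-48755488 on the plus strand (GRCh38.p14). It is printed with the element in capitals, on the strand where it reads as the reverse complement:
FGF21 promoter: aaacaccaggATTGCATCAgggaggaggag

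Of 35116 promoters of this length, 83 (0.236%) hold that element, 8 (0.0228%) the first repeat and 0 the second. ATF4 itself was at 580 ± 27.1 CPM with overexpression and 546 ± 48.1 CPM in controls (SD, n = 3 each), and FGF21 was at or under the floor in both groups. A match is a description of the letters in this window, and no match says nothing about a factor.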

How the data were processed

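The authors sequenced RNA from 6 Huh7 samples, whose titles give the group and the replicate number. For every gene and library, their deposited table holds a raw read count and an FPKM value. The submitters' processing notes name TopHat2 2.0.9 and hg38. The counting tool, strand handling and annotation release are not given in the sources used here, so overlapping and antisense genes cannot be told apart. The gene length behind the FPKM values was inferred from counts, library totals and FPKM. It exceeded the merged exon length for FGF21, FGFR1, FGFR3, FGFR4 and FRS2, which lowers their FPKM against genes where both lengths are equal. Merged exons of GENCODE 29 were clipped to the gene ends of the table, a choice made after seeing that FGFR1 is longer in that release.

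Genes were tested with the quasi-likelihood method of edgeR 4.0.16 under R 4.3.3, after filterByExpr (smallest count 10) and TMM scaling, with only the group in the model, two-sided and with Benjamini-Hochberg adjustment over 15055 genes. The biological coefficient of variation was 16.1%. Standard errors came from the F statistic. Within groups, library pairs differed by 10.1 to 20.9 chi-square per degree of freedom, so none was a copy of another. As alternatives, DESeq2 1.42.0, RLE or upper-quartile scaling and no filter were tried, beside leaving out single libraries, a block for replicate number, and limma 3.58.1 on log2(FPKM + 1) and log2(FPKM + 0.1), where a gene needed 1 FPKM in 3 libraries.

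Named genes were the 8 members and SOX5. From each list the 3 most abundant genes, those with an unadjusted p under 0.05 and the one with the largest difference at a mean of at least 1 CPM were named. The 5 genes closest in pattern to FGF19 and to FGFR4 were also named. The values of 1 list gene that this rule names are not reported here, though it is kept in the counts and medians. All 152 listed symbols were matched, 1 of them (LTO1) through its gene ID. The members and lists were chosen with earlier results of these data known. PEG10, HIGD1A, RP11-80H5.5 and PCGF3, and CYP7A1, SLC10A1, KL, FGF3, FGF4 and CDH5, were named after their values were seen.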

Additional observations from a re-analysis of the deposited data

How the results depend on the processing

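Of 473 values recomputed under alternatives, 442 were judged unchanged. Fold changes had to keep their direction and their side of the threshold. Levels, shares, ratios and medians had to move by less than the replicate spread, and counts of genes called to stay within a set factor. None of the 6 tested genes of the axis passed the threshold under any alternative. FGFR1, FGF2, IL17RD, MYC, PPARA and PTPRC had no value under limma on FPKM, and FGFR2 had no fold change under any alternative. FGF21 had too few counts for every fit but the one without a filter, and its value there is not given. Leaving out one library moved FGF19 from -0.023 to 0.15, FGFR1 from -0.17 to 0.10, FGFR4 from -0.046 to 0.10, FRS2 from -1.04 to 0.48, IL17RD from -1.04 to 0.034 and MYC from -0.34 to 3.44. The sign of FGF19 and FGFR1 turned without overexpression replicate 1, and that of FRS2 turned without overexpression replicate 1 (0.30), overexpression replicate 2 (0.22) or control replicate 2 (0.48). IL17RD turned without overexpression replicate 1. The cause was not tested.

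Over all genes, 4 were called higher and 2 lower. DESeq2 called 8 higher and 20 lower. Leaving out one library gave 1 to 7 higher and 2 to 9 lower. Per kb of merged exons, the FGF19 share of FGF family genes was 93.2% and the FGFR1 share of receptors 2.12%. On the same scale the ratio of FGFR4 to FGF19 was 1.99 and that of FGFR4 to KLB 2.75 (1.36 on FPKM). These values moved because the lengths differ. Among the list medians 7 values moved and 134 did not.

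With a replicate block, 2 genes were called higher and 2 lower, and FRS2 was at -0.29 with an edgeR adjusted p of 0.934. The log2 fold changes under the block were 0.083 for FGF19, -0.059 for FGFR1, 0.17 for FGFR3, 0.029 for FGFR4 and -0.084 for KLB. Same-numbered libraries did not deviate together (r of -0.036, -0.023 and -0.031 across genes). This cannot tell whether they were cultured or prepared together, which the labels do not give. Depth limits FGF21 and FGFR2, which lie at or under 3 counts, and replicate spread limits FRS2.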
